A study of Mus musculus with 12 samples.

Results

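The 10 genes described here are the receptors Notch1, Notch2, Notch3 and Notch4, the ligands Jag1, Jag2, Dll1 and Dll4, and the target genes Hes1 and Hey1. They were chosen by symbol, and all 10 had a row among the 35976 genes counted in mouse scars. All 10 also passed the filter on low counts, which left 18853 genes to test. RNA-seq was performed on scars of male mice aged 8 to 12 weeks in 4 groups of 3 mice, with 1 library per mouse. Tem1WT/WT mice, which carry intact Tem1, and Tem1lacZ/lacZ mice, in which a lacZ reporter takes the place of the only exon of Tem1 in every cell, each formed a sham group and a traction group. Tem1 is listed under the symbol Cd248 and encodes a surface protein of stromal cells. All mice received a 1.5-cm split wound in the back skin and a plastic device on day 6. The device was elongated by 1 mm per day to 8 mm in the traction groups and was left as placed in the sham groups. The deletion is global and not limited to a cell type of the scar, and the Tem1lacZ/lacZ line had been backcrossed to C57BL/6J for 10 generations. The study asked how scars formed under traction differ when Tem1 is missing.

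Notch receptors are single-pass membrane proteins that are activated by ligands on a neighbouring cell. Ligand binding exposes a receptor site that is cut by an ADAM protease, gamma-secretase then frees the intracellular part, and this part joins RBPJ and a Mastermind protein on target genes such as Hes1 and Hey1. In vessels, Dll4 is best known from the endothelium of sprouts and arteries, Notch4 is largely endothelial, Notch3 is typical of pericytes and smooth muscle, and in skin Notch1, Notch2, Jag1 and Jag2 are also made by keratinocytes.

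Library totals were 41536788 to 64644293 counts. Cd248 was at 92.4 to 337 CPM (counts-per-million of the library, with TMM normalization) in the 6 Tem1WT/WT libraries and at 0 to 0.248 CPM in the 6 Tem1lacZ/lacZ libraries, as the genotype labels state. Markers of skin cell types were present in every group, and several lists differed with traction in Tem1WT/WT mice. Over all genes tested in this comparison, 5.61% rose and 3.54% fell at an adjusted p under 0.05 in edgeR. An unadjusted p under 0.05 was found for 31.4% of all genes. Of 9 hair follicle markers 2 fell, and their summed level was 7543 to 14971 CPM with sham and 2402 to 4120 CPM with traction in these mice. Of 7 neutrophil markers tested 4 rose, and the summed level of the 8 listed was 116 to 121 CPM with sham and 314 to 7057 CPM with traction, and the highest value belonged to replicate 1. Of 8 skeletal muscle markers 0 passed and 8 had an unadjusted p under 0.05, with a summed level of 769 to 8856 CPM with sham and 194 to 1434 CPM with traction. The part of these cell types in the results below was not tested.

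Notch4 and Dll4 were the members that rose with traction in Tem1WT/WT mice at an adjusted p under 0.05 in edgeR, by 4.39-fold and 3.30-fold. Dll4 was at a mean of 4.78 to 5.69 CPM in the other 3 groups and 15.8 CPM in this one, and Notch4 was at 6.15 to 13.0 CPM in the others and 30.4 CPM in this one. In bulk tissue, fewer cells of a type and less RNA per cell cannot be told apart. The sequences just upstream of these 2 genes are shown because they are the members that moved together in Tem1WT/WT mice. They were taken from the RefSeq promoter table of GRCm38.p6, in which 8 of the 10 members were matched. The capitals mark AGGAAG or its reverse complement CTTCCT, a core found in sites of ETS factors, the family that holds the endothelial factor Erg.
Notch4, chr17:34564045-34564285, plus strand: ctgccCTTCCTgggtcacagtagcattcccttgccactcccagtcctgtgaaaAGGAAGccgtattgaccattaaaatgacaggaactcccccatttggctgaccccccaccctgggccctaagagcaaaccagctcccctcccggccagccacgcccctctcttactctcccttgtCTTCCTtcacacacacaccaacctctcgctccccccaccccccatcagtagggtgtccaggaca
Dll4, chr2:119325534-119325783, plus strand: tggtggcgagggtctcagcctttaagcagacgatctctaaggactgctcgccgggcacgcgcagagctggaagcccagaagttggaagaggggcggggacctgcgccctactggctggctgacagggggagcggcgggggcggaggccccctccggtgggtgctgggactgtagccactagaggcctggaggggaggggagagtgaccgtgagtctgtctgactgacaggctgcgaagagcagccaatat

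The Notch4 stretch held 3 matches to AGGAAG on either strand and the Dll4 stretch held 0. Of all 32851 RefSeq promoter windows of the same kind, 29.5% held at least 1 match, and the share with 3 or more was not counted. The other motifs searched on both strands were CCGGAAG, a longer ETS core that shares letters with AGGAAG (in 6.91% of all windows), GTGGGAA, the RBPJ site (5.42%), its core TGGGAA (21.6%) and the E-box CACGTG (6.02%), and neither of the 2 stretches held any of them. The motifs were chosen after the expression values were seen, and a match is a description of these letters alone.

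**Figure D1:**
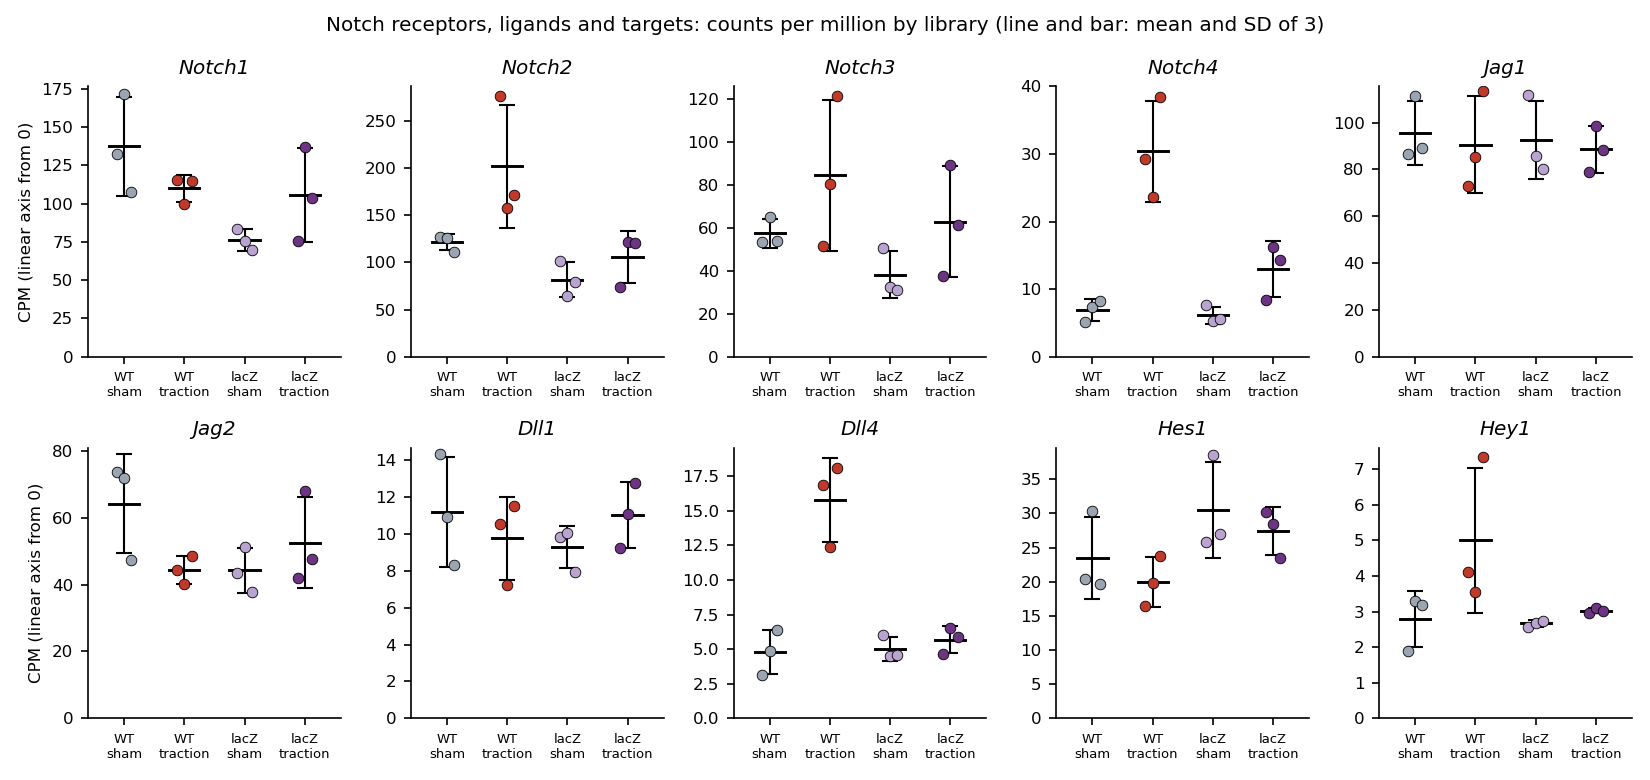
CPM of each of the 10 genes in each library, on a linear axis that starts at 0 for each gene. Points are the 3 libraries of a group in order of replicate number, and the line and bar are their mean and SD. The 3 Tem1WT/WT traction libraries of Notch4 and Dll4 sit above all 9 other libraries.

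With levels divided by exon length, the members fell into a higher and a lower tier in every group. In Tem1WT/WT mice with sham the order of mean CPM per kb was Jag1 (16.4), Hes1 (11.5), Notch2 (11.3), Notch1 (9.64), Jag2 (9.23) and Notch3 (7.11), followed by Dll1 (2.65), Dll4 (1.24), Notch4 (0.858) and Hey1 (0.853). Neighbours from Jag1 to Notch3 overlapped in their libraries, as did Dll4, Notch4 and Hey1, whereas Dll1 stood apart from both its neighbours. In Tem1WT/WT mice with traction Notch2 had the highest mean, 18.7 CPM per kb, and overlapped Jag1 (15.5). Dll4 (4.09) and Notch4 (3.77) stood above Dll1 (2.31) without overlap. In both Tem1lacZ/lacZ groups Jag1 and Hes1 formed the top pair, apart from the other members, at 15.9 and 15.0 CPM per kb with sham and 15.2 and 13.4 CPM per kb with traction. Dll4 was at 1.31 and 1.48 CPM per kb in these groups and Notch4 at 0.762 and 1.61 CPM per kb, both below Dll1.

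Of the 10 members, 2 rose and 0 fell with traction in Tem1WT/WT mice at an adjusted p under 0.05 in edgeR, and 8 did not pass, with 5 members at an unadjusted p under 0.05 (31.4% of all genes). Over all genes tested 9.15% passed in this comparison, 5.61% as higher and 3.54% as lower. These shares are 1057 and 668 genes, against 734 and 939 with upper quartile normalization and 621 and 127 in limma-voom, where Notch4 and Dll4 still rose. The 3 traction libraries were all above the 3 sham libraries for Notch2, Notch4, Dll4 and Hey1, and 17.7% of all genes did so. The median log2 fold change was 0.24 over the members and -0.01 over all genes, with 5 of the 10 members above 0. The same median in Tem1lacZ/lacZ mice was 0.25 over the members and -0.015 over all genes, with 8 of the 10 above 0. In Tem1lacZ/lacZ mice 0 of the 10 members passed in edgeR, where 0% of all genes passed. There 1 member, Notch4, had an unadjusted p under 0.05 (8.12% of all genes), and DESeq2 called 0 and limma-voom 1 (Notch4, beside 2.31% of all genes). Without traction replicate 1 of this genotype, 4 members had an unadjusted p under 0.05 in edgeR. Then 0 members passed, beside 0.376% of all genes. The count of all genes at an unadjusted p under 0.05 was then 3721, against 1530 with all libraries. Notch4 and Hey1 were higher in all 3 traction libraries than in all 3 sham libraries of this genotype, beside 6.77% of all genes.

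Among the receptors, Notch4 (Entrez 18132, chr17:34564286-34588543 in GRCm38.p6, plus strand) changed most. In Tem1WT/WT mice it was at 5.12, 7.38 and 8.24 CPM in the sham libraries and at 29.3, 23.6 and 38.4 CPM in the traction libraries. Its levels in Tem1lacZ/lacZ mice were 7.62, 5.29 and 5.53 CPM with sham and 8.33, 16.3 and 14.3 CPM with traction. The traction libraries were above the sham libraries in each genotype, and the Tem1WT/WT traction libraries were above the Tem1lacZ/lacZ traction libraries, with no overlap in any of these 3 comparisons. The log2 fold change with traction was 2.14 (SE 0.30, 95% interval 1.48 to 2.79, adjusted p 0.0184 by edgeR) in Tem1WT/WT mice. It ranked 15 by p-value among all genes. The log2 fold change in Tem1lacZ/lacZ mice was 1.08 (SE 0.29, 0.44 to 1.72) with an edgeR adjusted p of 0.598. The adjusted p in Tem1WT/WT mice was 0.109 without sham replicate 1, 0.0869 without sham replicate 2 and 0.0747 when the other 6 libraries were left out of the fit, where 0 genes of the whole table passed. The log2 fold change stayed between 1.94 and 2.30 under all alternatives.

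Notch2 (Entrez 18129, chr3:98013538-98150367, plus strand) had the highest mean per length of the receptors in every group, and its range overlapped that of another receptor each time. It was at 127, 126 and 112 CPM with sham and at 276, 157 and 172 CPM with traction in Tem1WT/WT mice, and the 2 groups did not overlap. The Tem1lacZ/lacZ values were 101, 64.2 and 78.9 CPM with sham and 74.1, 122 and 121 CPM with traction, which overlapped. The log2 fold change in Tem1WT/WT mice was 0.73 (SE 0.26, 95% interval 0.15 to 1.30) and did not pass, with an edgeR adjusted p of 0.0881. Traction replicate 1, the library with the highest neutrophil marker sum, carried the highest Notch2 value, and without it the log2 fold change was 0.41 (adjusted p 0.299).

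Notch1 (Entrez 18128, chr2:26457902-26503822, minus strand), the receptor of keratinocytes and many other cells, differed most between the sham groups. Its levels were 133, 172 and 108 CPM in Tem1WT/WT sham libraries and 83.7, 75.4 and 69.5 CPM in Tem1lacZ/lacZ sham libraries, with no overlap. The Tem1WT/WT traction libraries were at 115, 99.9 and 115 CPM, and the Tem1lacZ/lacZ traction libraries at 75.9, 137 and 104 CPM. The log2 fold changes with traction were -0.32 (SE 0.22) in Tem1WT/WT mice and 0.47 (SE 0.22) in Tem1lacZ/lacZ mice, and neither passed (edgeR adjusted p 0.345 and 0.622). They were closest to 0 at -0.10 without sham replicate 2 of Tem1WT/WT mice and 0.24 without traction replicate 2 of Tem1lacZ/lacZ mice.

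Notch3 (Entrez 18131, chr17:32120820-32166896, minus strand), the receptor of mural cells, was the most scattered receptor among traction libraries relative to its mean. It was at 53.5, 65.1 and 53.9 CPM with sham and at 51.7, 80.6 and 122 CPM with traction in Tem1WT/WT mice. The Tem1lacZ/lacZ libraries were at 50.9, 32.7 and 31.3 CPM with sham and at 37.7, 89.6 and 61.6 CPM with traction. Sham and traction overlapped in both genotypes, and the log2 fold changes of 0.56 (SE 0.35) and 0.72 did not pass in edgeR (adjusted p 0.300 and 0.622). They were 0.20 without traction replicate 3 of Tem1WT/WT mice and 0.38 without traction replicate 2 of Tem1lacZ/lacZ mice. The summed level of 10 mural cell markers was 612 to 943 CPM with sham and 826 to 1905 CPM with traction in Tem1WT/WT mice. There 2 of the 10, Pdgfrb and Mcam, rose and 0 fell, beside 5.61% and 3.54% of all genes.

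Among the ligands, Dll4 (Entrez 54485, chr2:119325784-119335666, plus strand) was the single member that passed the threshold, as higher with traction in Tem1WT/WT mice. It was at 3.15, 4.83 and 6.36 CPM with sham and at 16.9, 12.3 and 18.1 CPM with traction in Tem1WT/WT mice. In Tem1lacZ/lacZ mice it was at 6.04, 4.48 and 4.56 CPM with sham and at 4.66, 6.54 and 5.88 CPM with traction. The Tem1WT/WT traction libraries stood above all others, and the Tem1lacZ/lacZ groups overlapped. The log2 fold change was 1.72 (SE 0.28, 95% interval 1.11 to 2.33, adjusted p 0.0242 by edgeR, rank 48) in Tem1WT/WT mice. It was 0.18 (SE 0.27, -0.42 to 0.78, edgeR adjusted p 0.869) in Tem1lacZ/lacZ mice. Leaving out sham replicate 1 or sham replicate 2, or fitting the 6 libraries alone, gave the same adjusted p as for Notch4, and the log2 fold change stayed between 1.49 and 1.98 under all alternatives. A gene on the opposite strand, Gm14207, overlaps exons of Dll4 in GENCODE vM21 and the strand setting of the counting is not stated. Gm14207 had 1 to 22 counts in a library and Dll4 had 145 to 879, and whether reads were shared between them was not tested.

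Jag1 (Entrez 16449, chr2:137081451-137116520, minus strand), the most abundant ligand per length in every group, had a mean of 95.6 ± 13.7 CPM (SD, n = 3) with sham and 90.5 ± 20.7 CPM with traction in Tem1WT/WT mice. Its means were 92.5 ± 16.7 and 88.6 ± 10.01 CPM in Tem1lacZ/lacZ mice. The libraries of all 4 groups overlapped, and the log2 fold changes with traction were -0.08 and -0.06 (edgeR adjusted p 0.817 and 0.943). Jag2 (Entrez 16450, chr12:112907803-112929812, minus strand), a ligand of epidermal cells, was at 73.7, 71.8 and 47.3 CPM in Tem1WT/WT sham libraries and at 44.4, 40.1 and 48.6 CPM in Tem1WT/WT traction libraries, with overlap at the third sham library. Its log2 fold change was -0.53 (SE 0.22) in Tem1WT/WT mice and 0.25 in Tem1lacZ/lacZ mice (edgeR adjusted p 0.125 and 0.761). The same Tem1WT/WT comparison held the fall of the hair follicle marker sum given above, and its part in the Jag2 values was not tested. Dll1 (Entrez 13388, chr17:15367354-15376932, minus strand), another delta-like ligand, ranged from 7.22 to 14.3 CPM over the 12 libraries, and its log2 fold changes with traction were -0.20 and 0.25 (edgeR adjusted p 0.615 and 0.786).

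The 2 target genes, which encode basic helix-loop-helix repressors, did not pass in either genotype. Hey1 (Entrez 15213, chr3:8663359-8667038, minus strand), a target in endothelium, was at 1.89, 3.29 and 3.18 CPM with sham and at 4.12, 3.56 and 7.33 CPM with traction in Tem1WT/WT mice. It was at 2.57, 2.68 and 2.75 CPM with sham and at 2.96, 3.11 and 3.02 CPM with traction in Tem1lacZ/lacZ mice. Sham and traction did not overlap in either genotype, and traction replicate 3 of Tem1WT/WT mice was the highest library. The log2 fold change was 0.84 (SE 0.31, 95% interval 0.17 to 1.52, edgeR adjusted p 0.0921) in Tem1WT/WT mice, 0.46 (adjusted p 0.317) without traction replicate 3, and 0.18 (adjusted p 0.883) in Tem1lacZ/lacZ mice. Hes1 (Entrez 15205, chr16:30065357-30067796, plus strand), a target in most tissues, was at 20.4, 30.4 and 19.7 CPM with sham and 16.5, 19.7 and 23.7 CPM with traction in Tem1WT/WT mice. The Tem1lacZ/lacZ libraries were at 25.9, 38.5 and 27.0 CPM with sham and 30.2, 28.5 and 23.4 CPM with traction. Sham and traction overlapped in both genotypes, and the log2 fold changes of -0.23 and -0.16 had edgeR adjusted p of 0.503 and 0.861.

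**Figure D2:**
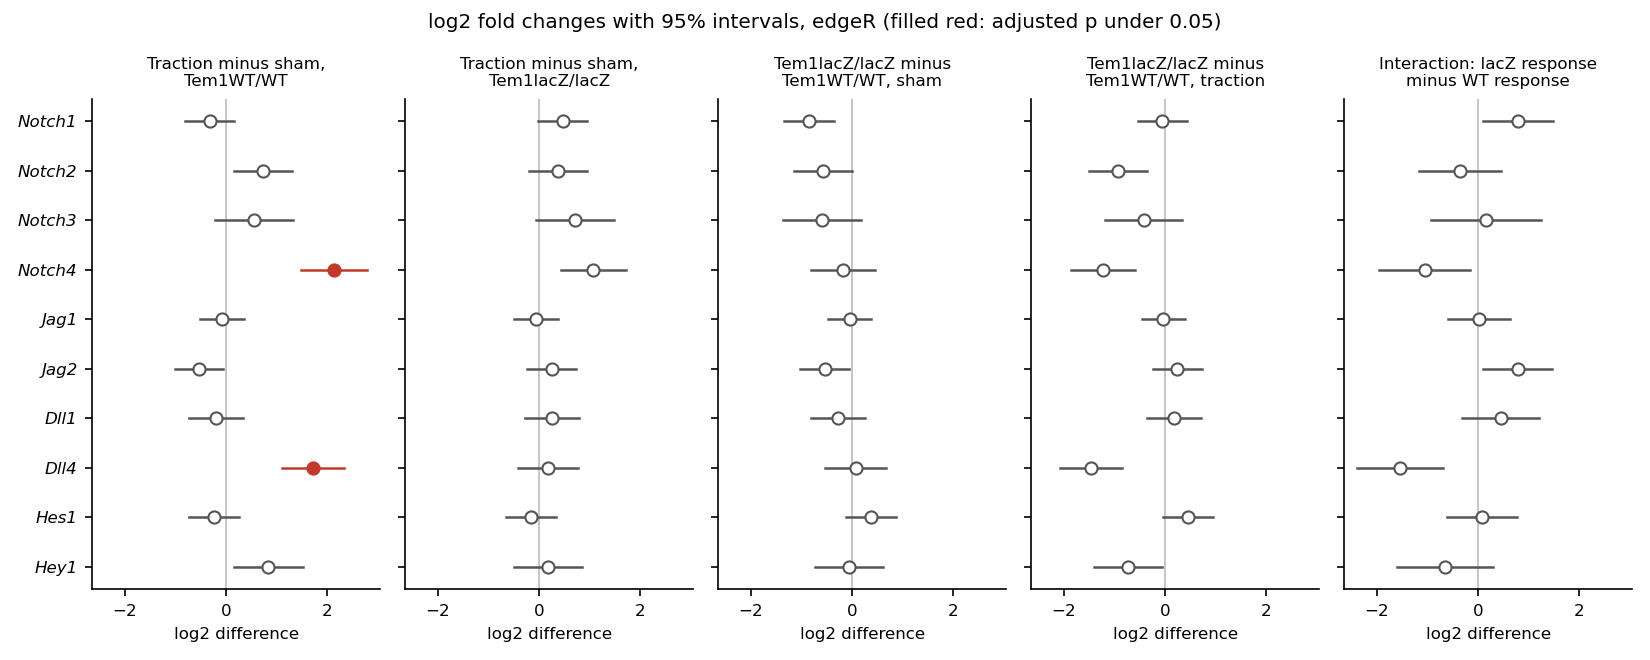
Log2 fold changes of the 10 genes with their 95% intervals from edgeR, in 5 panels for traction minus sham in each genotype, Tem1lacZ/lacZ minus Tem1WT/WT in sham and in traction, and the interaction. Filled red points have an adjusted p under 0.05, which Notch4 (2.14) and Dll4 (1.72) reached in the first panel and no other point reached.

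Between the genotypes under traction, 0 of the 10 members passed in edgeR, where 0.106% of all genes did. DESeq2 called 3 members, Notch2, Notch4 and Dll4, and 12.4% of all genes, limma-voom called 0 members, and 4 members had an unadjusted p under 0.05 in edgeR (26.1% of all genes). The Tem1lacZ/lacZ traction libraries were all below the Tem1WT/WT traction libraries for Notch2, Notch4, Dll4 and Hey1, which was so for 13.7% of all genes. The log2 difference, Tem1lacZ/lacZ minus Tem1WT/WT, was -1.47 for Dll4 (SE 0.28, 95% interval -2.08 to -0.86, edgeR adjusted p 0.0829) and -1.23 for Notch4 (SE 0.29, -1.87 to -0.59, edgeR adjusted p 0.0891). It was -0.93 for Notch2 (SE 0.26, edgeR adjusted p 0.0952) and -0.72 for Hey1 (SE 0.31, edgeR adjusted p 0.167). These 4 comparisons use the same Tem1WT/WT traction libraries as the comparison with sham. Without traction replicate 2 of Tem1WT/WT mice, the 3 members that DESeq2 called also passed in edgeR, with adjusted p of 0.0188 for Dll4, 0.0323 for Notch4 and 0.0434 for Notch2, beside 7.32% of all genes. Without traction replicate 1 of Tem1WT/WT mice the difference of Notch2 was -0.60 (adjusted p 0.219), and without traction replicate 3 that of Hey1 was -0.33 (adjusted p 0.510), both in edgeR. Without traction replicate 1 of Tem1lacZ/lacZ mice, 3 members and 2896 of all genes had an unadjusted p under 0.05 in edgeR, against 4 and 4930. The other 6 members had log2 differences between -0.43 (Notch3, which ranged from -0.76 to -0.06 with 1 library left out) and 0.45 (Hes1).

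Between the sham groups 0 of the 10 members passed in edgeR and 0.0106% of all genes did. DESeq2 and limma-voom also called 0, and 3 members had an unadjusted p under 0.05 in edgeR (11.7% of all genes). Notch1, Notch2 and Notch3 were lower in all 3 Tem1lacZ/lacZ sham libraries than in all 3 Tem1WT/WT sham libraries, as were 13.8% of all genes. Notch1 had the largest log2 difference of the members, -0.85 (SE 0.22, 95% interval -1.34 to -0.36), with an edgeR adjusted p of 0.409 at rank 74. Notch2 and Notch3 had log2 differences of -0.58 and -0.59, and the 2 members that passed with traction in Tem1WT/WT mice had -0.17 (Notch4) and 0.07 (Dll4). Exon length was 14232 bases for Notch1, 10782 for Notch2, 8089 for Notch3, 8061 for Notch4 and 3852 for Dll4. Its part in these differences was not tested.

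The interaction, which is the traction response of Tem1lacZ/lacZ mice minus that of Tem1WT/WT mice, passed in edgeR for 0 of the 10 members and for 0% of all genes. The unadjusted p was under 0.05 for Notch1, Notch4, Jag2 and Dll4 (8.91% of all genes), DESeq2 called Dll4 and 0.366% of all genes, and limma-voom called 0. The log2 interaction of Dll4 was -1.54 (SE 0.39, 95% interval -2.39 to -0.69), that of Notch4 was -1.06 (SE 0.41, -1.95 to -0.16), that of Notch1 was 0.79 (SE 0.31, 0.10 to 1.48) and that of Jag2 was 0.78 (SE 0.31, 0.10 to 1.47). The edgeR adjusted p of each of these 4 was 0.548.

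Other genes of the pathway were taken from a list of 60, of which 59 could be tested. In Tem1WT/WT mice 3 rose with traction, 1 fell and 55 did not pass, beside 9.15% of all genes called. The median log2 fold change of the list was 0.19, with 41 of the 59 above 0. In Tem1lacZ/lacZ mice this median was also 0.19, with 43 of the 59 above 0. Furin, the convertase that cuts the Notch precursor, was at 68.4, 90.3 and 98.9 CPM with sham and at 482, 155 and 212 CPM with traction, without overlap, and had a log2 fold change of 1.72 (SE 0.38, edgeR adjusted p 0.0326). The highest value was again that of traction replicate 1, and without this library the log2 fold change was 1.08 (edgeR adjusted p 0.0525). Maml1, a Mastermind coactivator, was at 36.3, 39.2 and 39.3 CPM with sham and at 62.9, 59.5 and 75.0 CPM with traction, also without overlap (log2 fold change 0.78, SE 0.21, edgeR adjusted p 0.0449). Numbl, a relative of the Notch inhibitor Numb, had a log2 fold change of 0.91 (SE 0.25, edgeR adjusted p 0.0480), with no overlap, and of 0.58 without traction replicate 3 (edgeR adjusted p 0.136). Dtx1, a Deltex ubiquitin ligase, fell by 1.48 on the log2 scale (SE 0.41, edgeR adjusted p 0.0486) from 3.32, 4.41 and 1.80 CPM to 1.86, 0.817 and 0.740 CPM, and its groups overlapped. These calls lie near the threshold, and leaving out 1 library gave between 0 and 6 calls of the list.

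By role, the calls were 1 of 10 proteases (Furin), 2 of 15 genes of ligand and receptor trafficking (Numbl higher, Dtx1 lower) and 1 of 20 nuclear cofactors (Maml1). None of 5 glycosylation genes, 3 tested ligands of other kinds or 6 other target genes passed in edgeR, DESeq2 or limma-voom, and 1 of them, a glycosylation gene, had an unadjusted p under 0.05 in edgeR. The 6 targets Hes5, Hes6, Hes7, Hey2, Heyl and Nrarp had a median log2 fold change of -0.21 with traction in Tem1WT/WT mice, and 0 of the 6 had an unadjusted p under 0.05. Nrarp, a feedback inhibitor that Notch induces, was at 64.0, 78.1 and 55.6 CPM with sham and at 70.0, 51.9 and 58.2 CPM with traction, which overlapped. Rbpj, the DNA-binding partner of the receptors, had a log2 fold change of 0.52 with overlapping groups (edgeR adjusted p 0.269). The largest fall among the genes above the level for naming was that of Neurl1a, a ligand ubiquitin ligase, at -0.81 (edgeR adjusted p 0.403).

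In the 4 other comparisons 0 of the 59 pathway genes passed in edgeR. An unadjusted p under 0.05 was found for 8 with traction in Tem1lacZ/lacZ mice, 16 between genotypes with traction, 15 between genotypes with sham and 2 in the interaction, where the shares of all genes were 8.12%, 26.1%, 11.7% and 8.91%. DESeq2 called 0, 6, 1 and 0 in the same order, beside 0.149%, 12.4%, 0.228% and 0.366% of all genes. limma-voom called 4 with traction in Tem1lacZ/lacZ mice, beside 2.31% of all genes, and 0 in the other 3. The largest differences above the level for naming were those of Dlk1, a non-canonical ligand, with 1.47 for traction in Tem1lacZ/lacZ mice, -1.42 between sham genotypes and 1.54 in the interaction, and of Furin, with -1.54 between genotypes under traction. Dlk1 was scattered within groups, from 0.760 to 42.6 CPM in the Tem1WT/WT sham libraries, and its edgeR adjusted p values were 0.794, 0.714 and 0.841. The largest differences in the opposite direction were Dlk2 at -0.48 with traction in Tem1lacZ/lacZ mice, Cir1, an RBPJ corepressor, at 0.77 between genotypes under traction, Psenen, a gamma-secretase subunit, at 0.48 between sham genotypes, and Furin at -1.07 in the interaction. The edgeR adjusted p values of these 4 differences were 0.791, 0.0979, 0.409 and 0.564.

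**Figure D3:**
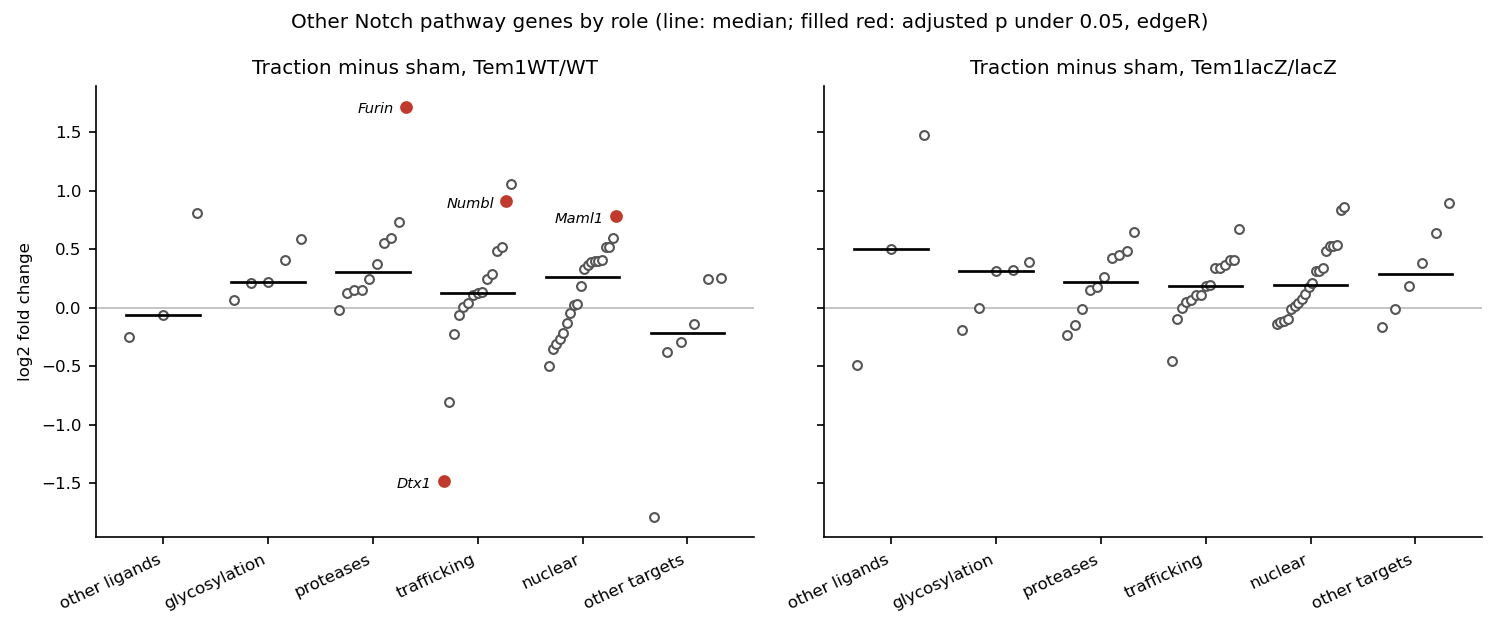
Log2 fold changes with traction of the 59 other pathway genes tested, grouped by role, in Tem1WT/WT mice (left) and Tem1lacZ/lacZ mice (right), with the median of each role as a line. Furin, Numbl, Maml1 and Dtx1, in filled red, are the genes with an adjusted p under 0.05, and all 4 are in the left panel.

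Endothelial markers rose beside Notch4 and Dll4 with traction in Tem1WT/WT mice. In these mice 8 of 12 endothelial markers rose with traction and 0 fell, beside 5.61% and 3.54% of all genes. The median log2 fold change of the 12 was 1.12. Their summed level was 438 to 634 CPM with sham and 1113 to 1295 CPM with traction in these mice. It was 340 to 562 CPM and 521 to 863 CPM in Tem1lacZ/lacZ mice. There 0 of the 12 passed in edgeR and 8 had an unadjusted p under 0.05 (8.12% of all genes). Their median log2 fold change in Tem1lacZ/lacZ mice was 0.70, beside 1.08 for Notch4 and 0.18 for Dll4. None of the 12 was at 0 in any group. The largest log2 fold change among the 12 was 1.60 (Cdh5, VE-cadherin), beside 2.14 for Notch4 and 1.72 for Dll4. Of 7 arterial markers 3 rose in Tem1WT/WT mice, beside 5.61% of all genes. Their log2 fold changes were 1.17 (Gja4) and 1.90 (Gja5), both connexins, and 2.35 (Cxcr4). The value of Gja5 was above that of Dll4 and the value of Cxcr4 above those of both members. Under traction, 0 of the 7 had a log2 difference above 0 between the genotypes, Tem1lacZ/lacZ minus Tem1WT/WT, with values from -2.44 to -0.09. Cxcr4, which leukocytes also express, was the 1 of the 7 that passed as lower in Tem1lacZ/lacZ mice (log2 difference -2.44, edgeR adjusted p 0.0257). In that comparison 0.106% of all genes passed.

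Notch4 and Dll4 were also expressed as a percent of the summed counts of the 12 endothelial markers, a measure added after the values were seen. Pecam1 and Cdh5 weigh most in this sum, with means of 344 and 265 CPM in Tem1WT/WT mice with traction. The Notch4 percent was 1.17, 1.33 and 1.30 with sham and 2.63, 2.08 and 2.96 with traction in Tem1WT/WT mice, and 1.36, 1.56 and 1.16 with sham and 1.60, 1.89 and 1.66 with traction in Tem1lacZ/lacZ mice. The traction libraries were above the sham libraries in both genotypes, with log2 differences of 1.00 (SE 0.16) and 0.34 (SE 0.14). The Dll4 percent was 0.718, 0.873 and 1.00 with sham and 1.52, 1.09 and 1.39 with traction in Tem1WT/WT mice, and 1.08, 1.32 and 0.957 with sham and 0.894, 0.758 and 0.682 with traction in Tem1lacZ/lacZ mice. By this percent, all Dll4 traction libraries were above sham in Tem1WT/WT mice and below sham in Tem1lacZ/lacZ mice, with log2 differences of 0.62 (SE 0.20) and -0.52 (SE 0.18). Each of these 4 differences had an exact two-sided permutation p of 0.1, the smallest that 3 against 3 allows, and 0.267 after adjustment over 16 such tests. The percent was lower in the Tem1lacZ/lacZ than in the Tem1WT/WT traction libraries without overlap, by -0.57 for Notch4 and -0.77 for Dll4 on the log2 scale (exact p 0.1 each).

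Hey1 relative to the same sum was at 0.509 ± 0.0823% with sham and 0.417 ± 0.133% with traction in Tem1WT/WT mice (SD, n = 3), which overlapped (log2 difference -0.32, exact permutation p 0.3). Notch3 relative to the summed mural cell markers was at 7.53 ± 1.61% and 5.94 ± 0.654% in the same groups and overlapped too (log2 difference -0.33, exact permutation p 0.3). Rgs5 and Acta2 weigh most in the mural sum. Their means were 241 and 212 CPM with sham and 441 and 451 CPM with traction in Tem1WT/WT mice. Acta2 ranged from 165 to 743 CPM in these traction libraries. In Tem1lacZ/lacZ mice the log2 differences were -0.51 for Hey1 and 0.22 for Notch3, with overlap in each (exact permutation p 0.2 and 0.6).

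**Figure D4:**
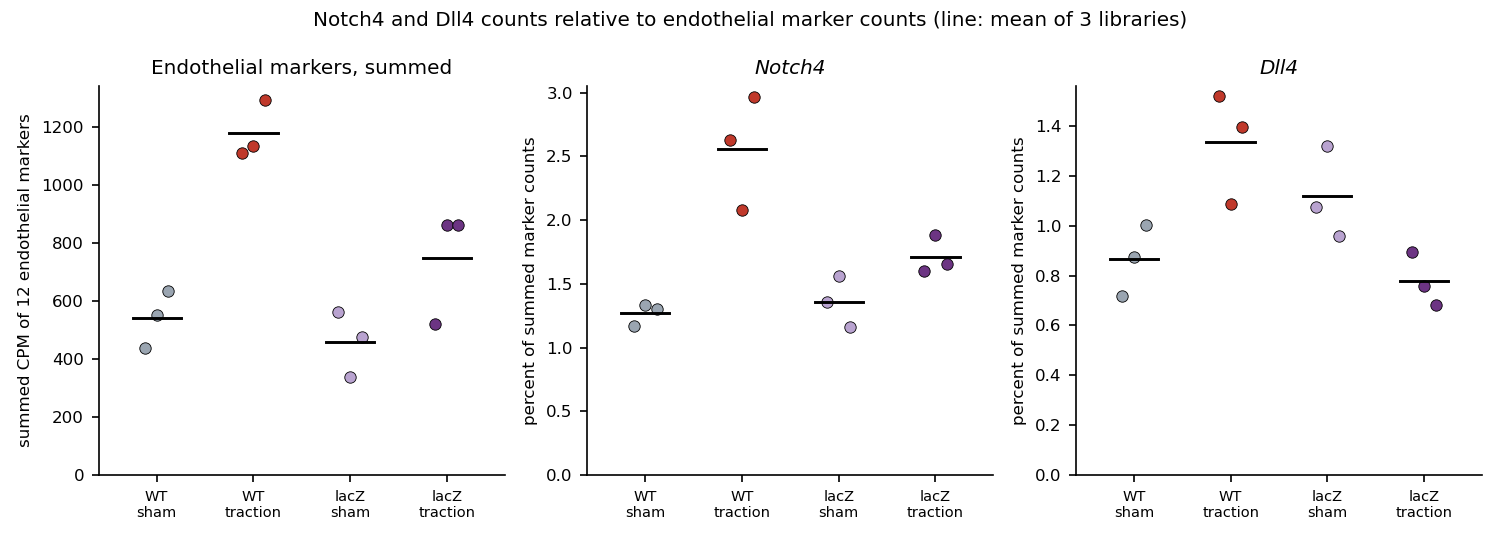
Summed CPM of the 12 endothelial markers (left) and the counts of Notch4 (middle) and Dll4 (right) as a percent of the summed marker counts, by library, on axes that start at 0, with the mean of 3 libraries as a line. The Tem1WT/WT traction libraries are the highest for Notch4, from 2.08% to 2.96%, and the Tem1lacZ/lacZ traction libraries of Dll4, at 0.682% to 0.894%, lie below their sham libraries.

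The genes whose log2 CPM followed each member most closely over the 12 libraries were listed among 13646 genes. For Notch4 these were Bgn (Pearson r 0.986), which encodes the matrix proteoglycan biglycan, Ccbe1 (0.985), a secreted factor of lymphatic growth, and Ckap4 (0.983). For Dll4 they were Actn1 (0.977), an actin-binding protein, P4hb (0.967), a subunit of the collagen prolyl hydroxylase, and Surf4 (0.966). None of these 6 genes is an endothelial marker of the list. Only the closest of the 13646 genes were listed for each member, so this leaves the rank of the endothelial markers unknown. The likeness of Notch4 and Dll4 to those markers was not tested. Notch2 was closest to Arid5b (0.986), Rela (0.985) and Fbrs (0.983), and Notch3 to Fat1 (0.964), Mbtps1 (0.960) and Pcgf2 (0.958). Notch1 was closest to Pak4 (0.960), Mical3 (0.951) and Pfas (0.935), and Jag2 to Fzd7 (0.932), Ptpn13 (0.902) and Cbx2 (0.896). Hey1 was closest to Foxk2 (0.970), Srm (0.956) and Mical2 (0.946), and Hes1 to Armc10 (0.937), Rmnd5b (0.934) and Tm7sf2 (0.920). Jag1 and Dll1 had the lowest leading values, with Sox13 (0.847), Papss1 (0.827) and Kctd3 (0.822) for Jag1 and Atp9a (0.865), Adi1 (0.816) and Tmem134 (0.813) for Dll1. The 12 points share library depth and the 4 groups, so these values describe likeness across libraries that include the group differences.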

How the data were processed

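Scars of 3 mice in each of 4 groups were sequenced from stranded poly(A) libraries as paired-end 150-bp reads. Per the labels and the submitters' processing notes, the authors trimmed reads with fastp 0.20.0, aligned them to GRCm38 with HISAT2 2.1.0 and counted them with featureCounts 2.0.0, and deposited the raw counts per gene symbol. The annotation, the strand setting and the treatment of reads with several alignments are not given in the sources used here, so reads of overlapping genes may be shared. Library totals were 41536788 to 64644293 counts.

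The whole table was fitted in R 4.3.3 with edgeR 4.0.16 (filterByExpr, TMM, robust quasi-likelihood, 1 model of 4 groups with 8 residual degrees of freedom). Adjusted p values are Benjamini-Hochberg over all 18853 genes tested, with a threshold of 0.05. Nothing in the labels ties mice across groups beyond a replicate number. Alternatives used other filters and normalizations, DESeq2 1.42.0, limma-voom 3.58.1, a replicate block, the 6 libraries of a comparison alone, and each library left out in turn. Differences relative to marker sums were tested by exact permutation over libraries.

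All members were named, with other pathway genes that passed the threshold or had the largest rise or fall of a comparison at a mean log2 CPM of at least 1, the 3 genes most like each member, and Cd248. Rbpj, Nrarp, Ep300, Spen, Crebbp, Hdac2 and Kat2b were named after their values were seen. So were the markers Cdh5, Pecam1, Pdgfrb, Mcam, Rgs5, Acta2, Gja4, Gja5 and Cxcr4. The members and lists were chosen with earlier results of these data known. Coordinates and promoters came from RefSeq (GRCm38.p6), and exon lengths from GENCODE vM21.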

Additional observations from a re-analysis of the deposited data

Results flagged for a closer look

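Dll4 was taken relative to the summed counts of 12 endothelial markers. By this measure, every traction library was above every sham library in Tem1WT/WT mice and below every sham library in Tem1lacZ/lacZ mice. Dll4 itself, in CPM, overlapped between sham and traction in Tem1lacZ/lacZ mice, with a log2 fold change of 0.18 (edgeR adjusted p 0.869). The marker sum in these mice was 340 to 562 CPM with sham and 521 to 863 CPM with traction. The log2 interaction of the relative measure was -1.14. Permuting the genotype labels within each treatment gave an exact two-sided p of 0.01 over 400 relabellings, for which the smallest p is 0.005, and 0.04 after adjustment over 4 such measures. The same interaction was -0.66 for Notch4 (exact p 0.04, adjusted 0.08), -0.19 for Hey1 (exact p 0.67) and 0.54 for Notch3 relative to mural cell markers (exact p 0.225). The permutation takes the genotypes to be alike in both treatments. A genotype difference under traction alone can therefore give a small p, and the test cannot show that the responses differ. The measure was chosen after the values were seen, and the adjustment does not cover that choice. In edgeR, over all genes, the interaction of Dll4 on CPM had an adjusted p of 0.548.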

How the results depend on the processing

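The count of members that passed with traction in Tem1WT/WT mice, 2, was 4 with DESeq2's Wald test (Notch2, Notch4, Dll4 and Hey1, beside 21.5% of all genes), 0 with the 6 libraries alone, and 0 to 2 with 1 library left out. It was 0 without Tem1WT/WT sham replicate 1 or 2. Notch4 and Dll4 passed in 18 of 21 alternatives each. With traction in Tem1lacZ/lacZ mice the count of 0 became 1 in limma-voom (Notch4, log2 fold change 1.29, adjusted p 0.0445). Between genotypes under traction it became 3 in DESeq2 and was 0 to 3 with 1 library left out, and in the interaction it became 1 in DESeq2 (Dll4, adjusted p 0.0489). Of the other pathway genes, the 4 calls in Tem1WT/WT mice became 1 with all genes of at least 1 count, 2 with upper quartile normalization or limma-voom, 9 in DESeq2, 0 with the 6 libraries alone and 0 to 6 with 1 library left out. In the other comparisons these counts of 0 became 4 in limma-voom and 0 to 1 with 1 library left out (traction, Tem1lacZ/lacZ), 6 in DESeq2 and 0 to 3 (genotypes, traction), and 1 in DESeq2 (genotypes, sham).

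Members near 0 changed sign. Between genotypes under traction, Notch1 was 0.071 with upper quartile normalization and 0.060 in limma-voom, and Jag1 was 0.0010 with at least 10 counts in every library, 0.097 with upper quartile normalization and 0.025 in limma-voom. Between sham genotypes, Jag1 was 0.0080 with upper quartile normalization and Dll4 -0.042 in limma-voom, and with traction in Tem1lacZ/lacZ mice Jag1 was 0.059 in limma-voom. With 1 library left out, the ranges of values that crossed 0 were -0.27 to 0.066 for Jag1, -0.36 to 0.015 for Dll1 and -0.37 to 0.015 for Hes1 (traction, Tem1WT/WT), -0.14 to 0.14 for Jag1 and -0.22 to 0.075 for Hes1 (traction, Tem1lacZ/lacZ), -0.29 to 0.17 for Notch1, -0.13 to 0.17 for Jag1 and -0.0020 to 0.33 for Dll1 (genotypes, traction), -0.23 to 0.10 for Jag1, -0.15 to 0.34 for Dll4 and -0.28 to 0.094 for Hey1 (genotypes, sham), and -0.18 to 0.55 for Notch3, -0.13 to 0.24 for Jag1 and -0.18 to 0.32 for Hes1 (interaction). Of 1040 member values under alternatives, 990 kept direction and side of the threshold. Upper quartile normalization moved the median of all genes to -0.12 with traction in Tem1WT/WT mice and to 0.14 between genotypes under traction. Group means moved by less than 1 SD with RLE normalization in 40 of 40 cases.

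Over the whole table, the 1725 calls of the first comparison were 4047 in DESeq2, 748 in limma-voom, 1011 with all genes of at least 1 count, 0 with the 6 libraries alone and 0 to 2861 with 1 library left out. The 20 calls between genotypes under traction were 2334 in DESeq2 and 1421 without Tem1WT/WT traction replicate 2. With the replicate number as a block, 1467 genes and 2 members passed with traction in Tem1WT/WT mice, and 0 members in the other comparisons. Same-numbered libraries came from different mice, and their deviations from the group means correlated between -0.32 and 0.25, so the number was not taken as a pairing. Hey1, the lowest member, had at least 87 counts in each library.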

Other observations

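Of 20 nuclear cofactors of the pathway, 13 were lower in all 3 Tem1lacZ/lacZ sham libraries than in all 3 Tem1WT/WT sham libraries, beside 13.8% of all genes, and 10 had an unadjusted p under 0.05 in edgeR (11.7% of all genes). None of the 20 passed after adjustment in edgeR, and their median log2 difference was -0.41, against -0.01 over all genes. Maml1, the Mastermind coactivator, had a log2 difference of -0.50 (SE 0.21, edgeR adjusted p 0.418) and Rbpj, the DNA-binding partner of the receptors, of -0.40 (SE 0.31, edgeR adjusted p 0.604). With traction, 9 of the 20 were lower in all Tem1lacZ/lacZ libraries than in all Tem1WT/WT libraries, beside 13.7% of all genes. Ep300, Spen and Crebbp, with 14273, 14089 and 13540 bases of exon, had sham means of 92.4, 65.5 and 69.5 CPM in Tem1WT/WT mice. In Tem1lacZ/lacZ mice these were 55.1, 31.6 and 40.3 CPM. Cir1 (3159 bases) and Hdac2 (4474 bases) went from 51.0 and 108 CPM to 58.4 and 126 CPM. Kat2b (4867 bases) went from 78.2 to 63.2 CPM. The part of exon length in these differences was not tested. The list was described and not tested as a set.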
